A study of Mus musculus with 6 samples.

Results

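The genes described here are 41 markers of brain regions that border the neocortex, chosen by name for where they are known to be transcribed: 14 of striatum, 9 of hippocampus, 8 of thalamus and 10 of choroid plexus. Of the 41, 19 are also known from elsewhere in cortex, among them most hippocampal markers and Pde10a, Zfp503, Ntng1, Plekhg1 and Vav3. For these, and for the other markers too, whether the RNA came from adjoining tissue or from neocortex was not tested. They are 41 of the 23420 genes in a table of RNA sequencing counts, all 41 were found there under these symbols, and all 41 passed the filter on low counts. The tissue was dissected neocortex of mouse embryos at embryonic day 18.5, labelled either Tshz3 mutant (3 libraries) or wild type (3 libraries). Cortices of 3 to 4 embryos, drawn from several litters, were pooled for each library, and the library numbers 1 to 3 are those of the sample titles. The alteration of Tshz3, a gene for a zinc finger transcription factor, and the strain are not stated in the sources used here.

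A dissected sheet of neocortex meets the striatum below it, the hippocampus at its medial edge and the choroid plexus of the lateral ventricle beyond that, while the thalamus sends axons into it and lies deeper. RNA of such neighbours can enter a neocortical sample in proportion to how much adjoining tissue is taken. The choroid plexus is a secretory epithelium that makes cerebrospinal fluid and transcribes a small set of genes at very high levels, so that little tissue yields many reads. Striatal projection neurons carry dopamine, adenosine and opioid signalling genes, hippocampal granule and pyramidal neurons are set up by Wnt-dependent transcription factors, and thalamic relay neurons by Tcf7l2 and Gbx2. In bulk samples such as these, fewer cells of a type and less RNA per cell cannot be told apart.

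Libraries held 18569383 to 24147810 counts, and 1 read was worth 0.0417 to 0.0544 CPM (depth-scaled read counts, with edgeR's TMM factors applied to library size). All 10 markers of neocortex itself were detected, with summed levels of 2513, 2713 and 2678 CPM in mutant-labelled libraries 1 to 3, beside 2402, 2462 and 2650 CPM in wild type 1 to 3. Tshz3 transcript averaged 94.0 ± 4.77 CPM in mutant-labelled libraries, against 83.7 ± 5.34 CPM in wild type (SD, n = 3 each; edgeR adjusted p = 0.669). A gene-level count of Tshz3 is thus no check on genotype, hence the term mutant-labelled. Same-numbered libraries of the genotypes deviated together across genes, so a fit with the library number as a block was run beside the fit without it. With the block, Tshz3 had a log2 fold change of 0.17 and an adjusted p of 0.0525 in edgeR. Each mutant-labelled library lay above each wild-type library in Tshz3, an order that 7.42% of all genes tested had.

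None of the 41 region markers passed an adjusted p of 0.05 between mutant-labelled and wild-type libraries, in edgeR's quasi-likelihood test without the block, with it, or in DESeq2. Over all genes tested, these called 0.0752%, 3.46% and 0.719%, that is 11 and 506 of 14618 genes and 102 of 14192 genes. At an unadjusted p under 0.05, 2 of 41 markers passed without the block, where 7.09% of all genes did, and 8 of 41 passed with it, where 17.9% did. Those 8 were Meis2, Rgs9, Pde10a, Zfp503, Ppp1r1b, Nr3c2, Calb1 and Aqp1. Choroid plexus markers differed up to 6.94-fold between libraries, and 9 of 10 were highest in library 1 of each genotype. Striatal, hippocampal and thalamic markers varied less between libraries in the median.

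**Figure D1:**
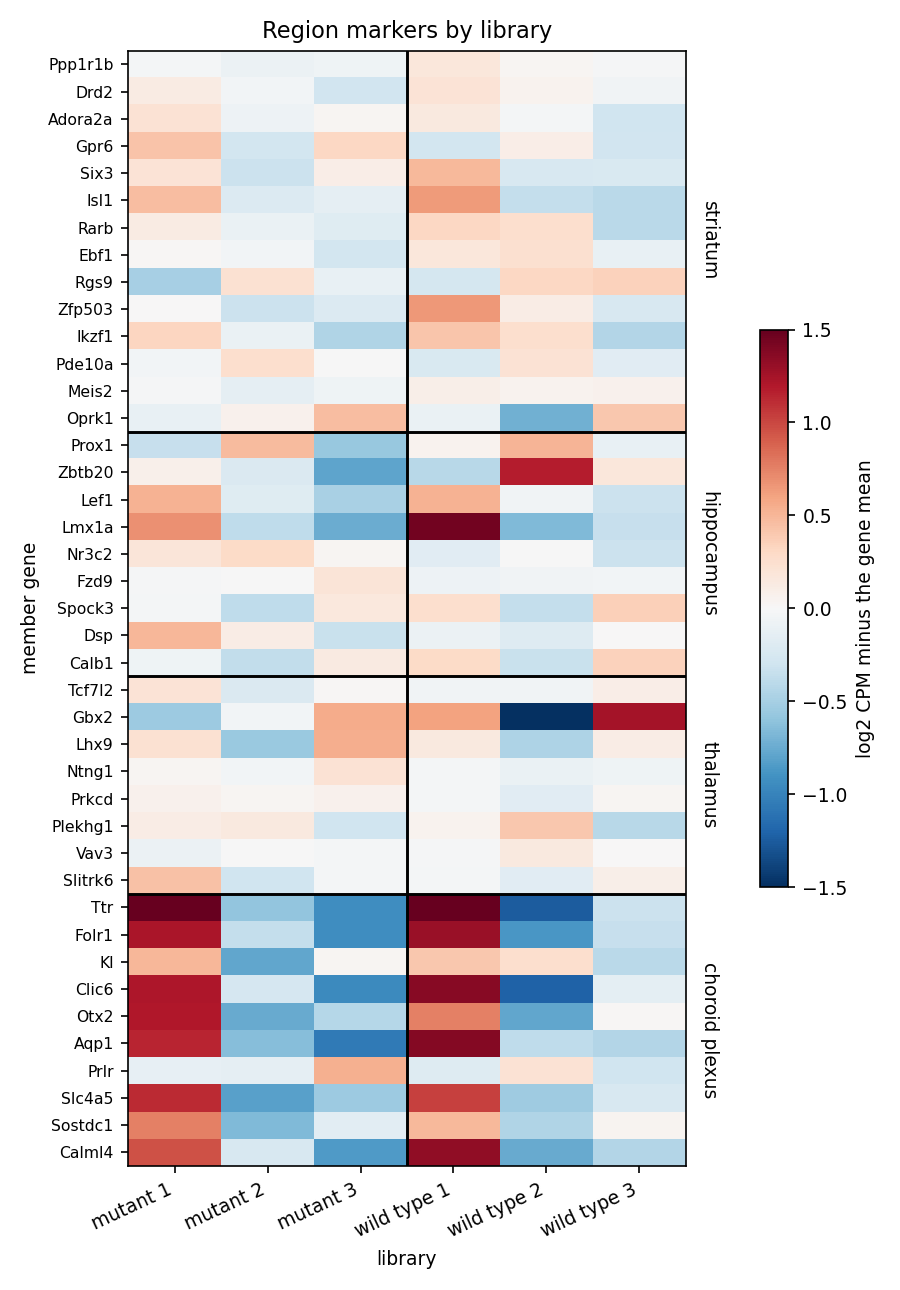
Level of each of the 41 markers in each library, as log2 CPM minus the gene's mean over the 6 libraries, with mutant-labelled libraries in the left block and wild-type libraries in the right block and colours ending at 1.5 in either direction. The dark cells are mainly choroid plexus markers in mutant 1 and wild type 1, where Ttr stood at 787 and 800 CPM.

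Most choroid plexus markers were several times higher in library 1 than in libraries 2 and 3, in both genotypes. Ttr encodes transthyretin, the thyroid hormone carrier that choroid plexus epithelium secretes. It had 787, 182 and 143 CPM in mutant-labelled libraries 1, 2 and 3, and wild-type libraries 1 to 3 had 800, 115 and 219 CPM. Library 1 thus held several times more Ttr than the others in both genotypes, and the groups overlapped fully. Within the mutant-labelled group, library 1 was 4.33-fold above library 2 and 5.48-fold above library 3. Within wild type, library 1 was 6.94-fold above library 2 and 3.66-fold above library 3.

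Between the genotypes at the same library number, mutant-labelled over wild type, the Ttr ratio was 0.983 for libraries 1, 1.58 for libraries 2 and 0.655 for libraries 3. The log2 fold change of Ttr was −0.03 (SE 0.94, n = 3 per group, edgeR adjusted p = 0.998), with a 95% interval from −2.35 to 2.29. That interval holds a change of more than 4-fold in either direction. With the block, which sets same-numbered libraries against each other, it was 0.0046 (SE 0.35), with an interval from −1.41 to 1.42. Ttr alone took 0.0801%, 0.018% and 0.0143% of all counts in mutant-labelled libraries 1 to 3, beside 0.0802%, 0.0115% and 0.0216% in wild type 1 to 3.

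Membrane and transport genes of the choroid plexus were also highest in library 1 of each genotype. Folr1, the folate receptor that loads folate into cerebrospinal fluid, had 8.06, 2.71 and 1.81 CPM in mutant-labelled libraries 1 to 3, and wild-type libraries 1 to 3 had 8.49, 1.88 and 2.72 CPM. Clic6, an intracellular chloride channel family gene, had 12.5, 4.50 and 2.77 CPM in mutant-labelled libraries, against 13.9, 2.32 and 4.84 CPM in wild type. In each of these genes, as in Ttr, the lowest mutant-labelled library was number 3 and the lowest wild-type library was number 2.

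Aqp1, the water channel of the apical choroid membrane, had 14.4, 4.17 and 3.12 CPM in mutant-labelled libraries, against 16.9, 5.02 and 4.79 CPM in wild type. Slc4a5, a sodium bicarbonate cotransporter, had 3.49, 0.917 and 1.11 CPM in mutant-labelled libraries, against 3.27, 1.11 and 1.36 CPM in wild type. Calml4, a calmodulin-like gene, had 3.16, 1.38 and 0.906 CPM in mutant-labelled libraries, against 4.08, 0.966 and 1.198 CPM in wild type. The range over the 6 libraries was 5.42-fold for Aqp1, 3.80-fold for Slc4a5 and 4.50-fold for Calml4, with library 1 highest in each genotype.

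Otx2 is the homeobox transcription factor that specifies and maintains choroid plexus epithelium. It had 4.19, 1.08 and 1.36 CPM in mutant-labelled libraries 1 to 3, and wild-type libraries 1 to 3 had 3.08, 1.06 and 1.85 CPM, so that this regulator also stood highest in both libraries numbered 1. Otx2 was picked for a sequence as a regulator within the choroid plexus list, which varied most between pools among the 4 regions. Shown are the 250 bases before 1 of its annotated starts, taken because they held the letters searched for. They lie on the minus strand at chr14:48665110-48665359 (RefSeq, GRCm38.p6), and the capitals mark the letters searched for, TAATCC, read here from the other strand as GGATTA.
Otx2: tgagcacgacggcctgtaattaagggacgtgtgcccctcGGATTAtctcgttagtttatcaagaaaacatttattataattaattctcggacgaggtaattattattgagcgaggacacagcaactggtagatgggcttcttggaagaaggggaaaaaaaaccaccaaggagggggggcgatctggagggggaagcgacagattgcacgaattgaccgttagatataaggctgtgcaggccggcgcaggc

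TAATCC is the core recognised by Otx homeodomains, and it was searched on both strands of such windows. Of 10 choroid plexus markers, 6 had windows in the RefSeq table, and 1 of their 11 windows held it, the one above. Among all promoters, 2054 of 32851 windows, or 6.25%, held it. A match is a description of letters and not a shown binding site.

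Sostdc1, a secreted antagonist of BMP and Wnt signals, had a smaller range. It had 6.36, 2.38 and 3.37 CPM in mutant-labelled libraries, against 5.26, 2.75 and 3.87 CPM in wild type. Kl, the anti-ageing hormone gene klotho, had 1.32, 0.542 and 0.957 CPM in mutant-labelled libraries, against 1.23, 1.11 and 0.708 CPM in wild type, from at most 28 reads per library. Prlr, the prolactin receptor gene, was the exception, with 0.801, 0.792 and 1.26 CPM in mutant-labelled libraries, against 0.759, 1.014 and 0.708 CPM in wild type. Library 1 was highest in both genotypes for 9 of the 10 choroid plexus markers, all but Prlr, where 19.6% of all genes tested had that order.

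Per kilobase of annotated exon, mean Ttr was 312 CPM in mutant-labelled libraries, against 319 CPM in wild type. The next level, that of Aqp1, was 2.76 CPM per kilobase in mutant-labelled libraries, against 3.39 CPM per kilobase in wild type. Ttr therefore set the summed level of the list. That sum was 841, 200.1 and 160.1 CPM in mutant-labelled libraries 1 to 3, beside 857, 133 and 241 CPM in wild type. Without Ttr it was 54.3, 18.5 and 16.7 CPM in mutant-labelled libraries, against 57.0, 17.2 and 22.1 CPM in wild type, with library 1 again highest in each genotype.

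**Figure D2:**
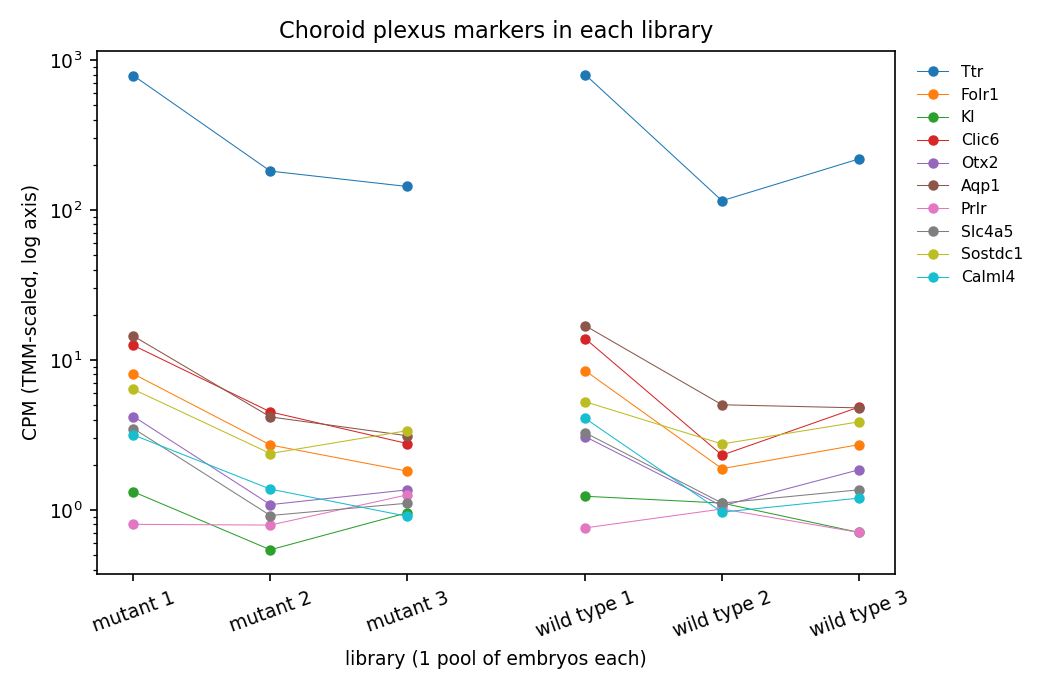
CPM of the 10 choroid plexus markers in each library on a log axis, with mutant-labelled libraries on the left and wild type on the right; thin lines only join the points of 1 gene within a genotype. Ttr stands at 787 CPM in mutant 1 and 800 CPM in wild type 1 and between 115 and 219 CPM elsewhere, and only Prlr lacks its highest value in library 1 of both genotypes.

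None of the 10 choroid plexus markers passed in either edgeR fit, and their median log2 fold change was −0.07, against −0.01 over all genes tested. Fold changes ran from −0.31 for Aqp1 to 0.19 for Prlr, and 3 lay above 0 and 7 below. The median standard error was 0.64 on the log2 scale, against 0.11 over all genes, and with the block it was 0.23, against 0.078 over all genes. Either was the largest of the 4 regions. With the block, Aqp1 was at −0.33, with a 95% interval from −0.60 to −0.063 and an adjusted p of 0.179 in edgeR. Single libraries set the sign of the median. It was −0.89 without mutant 1 and 0.58 without wild type 1, and each of these fits kept the other library numbered 1. With whole pairs left out and the block, it was −0.10 without pair 1, −0.12 without pair 2 and 0.025 without pair 3.

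A second list of 12 choroid plexus genes, among them the potassium channel subunit gene Kcne2 and the claudin gene Cldn2, also stood high in libraries numbered 1. Library 1 was highest in both genotypes for 11 of them, all but Mfrp, which had no read. Of the 10 that could be tested, none passed in either edgeR fit. Meningeal markers were also highest in library 1 of each genotype. In wild type their sum was higher in library 2 than in library 3, and the sum of the first choroid plexus list was the reverse. Aqp1, Kl and Prlr of the first list, and the sum of the second list, had the meningeal order there. The sum of 7 meningeal genes, including the collagen genes Col1a1 and Col1a2, was 180.3, 65.7 and 47.2 CPM in mutant-labelled libraries 1 to 3, and wild-type libraries 1 to 3 had 233, 146 and 36.9 CPM. The meningeal sum of wild type 2 was thus above those of the libraries numbered 3, while its sum of the first choroid plexus list was the lowest of the 6.

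Of 5 microglial markers, 5 were highest in library 1 of both genotypes, with sums of 60.2, 48.1 and 45.5 CPM in mutant-labelled libraries, against 61.1, 47.3 and 50.6 CPM in wild type. Vessel markers, with 4 of 6 in that order, summed to 156, 135 and 122 CPM in mutant-labelled libraries, against 159.9, 144 and 116 CPM in wild type. The part of these other cell types in the values of the region markers was not tested.

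**Figure D3:**
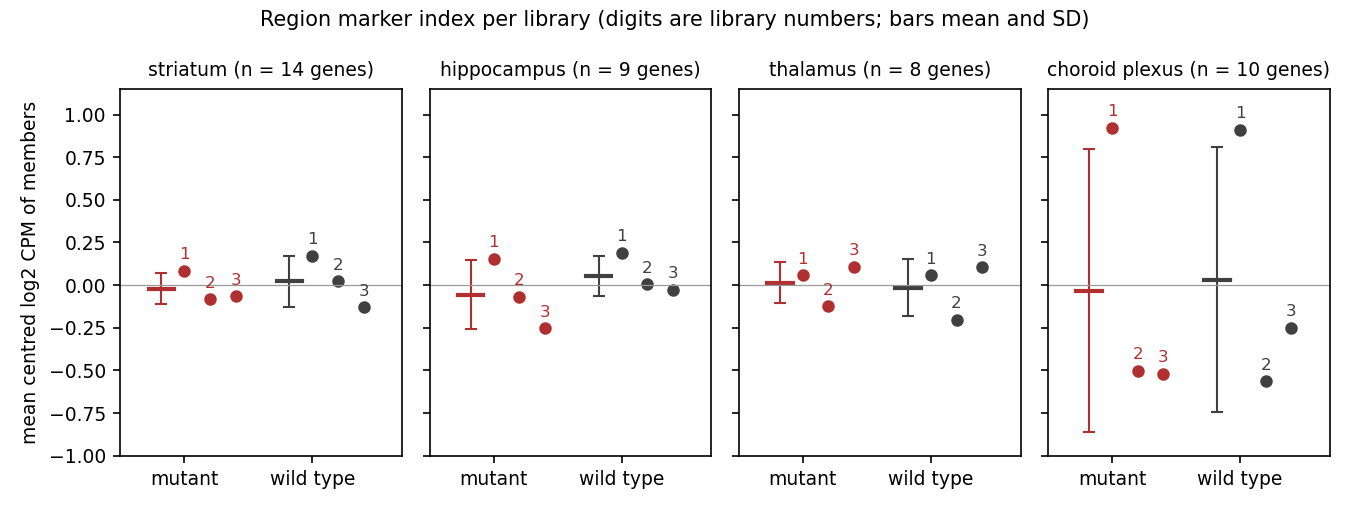
Mean centred log2 CPM of each region's markers in each library, mutant-labelled left and wild type right in each panel, with bars for the mean and SD of 3 libraries. Choroid plexus libraries numbered 1 lie at 0.92 in mutant and 0.91 in wild type and all others below 0, and elsewhere the hippocampal index of mutant 3, at −0.25, is the farthest from 0.

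To set the regions side by side, each marker's log2 CPM was centred on its own mean over the 6 libraries and averaged over the region. The choroid plexus index was 0.92, −0.50 and −0.52 in mutant-labelled libraries 1 to 3, beside 0.91, −0.56 and −0.25 in wild type 1 to 3. The striatal index was 0.08, −0.08 and −0.07 in mutant-labelled libraries, against 0.17, 0.02 and −0.13 in wild type. The hippocampal index was 0.15, −0.07 and −0.25 in mutant-labelled libraries, against 0.19, 0.01 and −0.03 in wild type. In these 3 regions library 1 was highest in each genotype, by a wide margin only for choroid plexus.

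The thalamic index was 0.06, −0.12 and 0.11 in mutant-labelled libraries, against 0.06, −0.20 and 0.10 in wild type, so that library 2 was lowest and library 3 highest in each genotype. The difference between the genotypes, mutant-labelled minus wild type, was −0.06 for choroid plexus, −0.04 for striatum, −0.11 for hippocampus and 0.03 for thalamus. Each was smaller than the pooled SD between libraries of its region, which was 0.80, 0.13, 0.17 and 0.15 in the same order and includes the differences between library numbers. Between same-numbered libraries 1, 2 and 3 the hippocampal difference was −0.035, −0.074 and −0.22, below 0 in 3 of 3 pairs. The thalamic difference was 0.00049, 0.081 and 0.0051, above 0 in 3 of 3. The striatal differences of −0.089, −0.10 and 0.065 and the choroid plexus differences of 0.011, 0.062 and −0.27 did not share a sign. With 3 pairs, an exact two-sided sign-flip permutation test cannot go below p = 0.25. The highest library over the lowest, as a median over markers, was 4.22-fold for choroid plexus, 1.65-fold for striatum, 1.79-fold for hippocampus and 1.502-fold for thalamus, against 1.29-fold over all genes tested. Over the 4 libraries numbered 2 and 3 the choroid plexus median was 1.68-fold, against 1.21-fold over all genes.

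**Figure D4:**
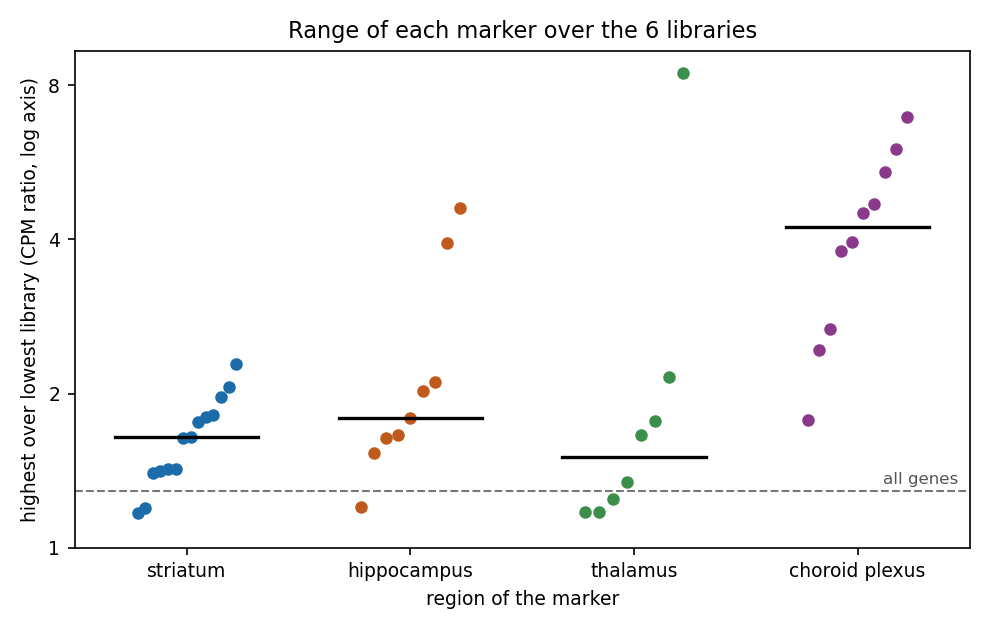
Highest over lowest library for each marker, as a ratio of CPM on a log axis, with a black line at each region's median and a dashed line at the median of all genes tested, 1.29. Choroid plexus markers sit highest as a list at a median of 4.22, and the single thalamic point at 8.45 is Gbx2, which had 2 to 15 reads per library.

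Striatal markers were all detected, and none passed the test between the genotypes. Per kilobase of exon the highest was Meis2, a homeobox gene of striatal and other forebrain neurons that neocortex also transcribes, at 28.1 CPM in mutant-labelled libraries, against 31.0 CPM in wild type. Next came Ppp1r1b, which encodes the dopamine-regulated phosphatase inhibitor DARPP-32, at 20.4 CPM per kilobase in mutant-labelled libraries, against 22.2 CPM per kilobase in wild type. Its highest library was only 1.19-fold above its lowest, and which cells its RNA came from was not tested. The lowest was the kappa opioid receptor gene Oprk1 at 0.156 CPM per kilobase in mutant-labelled libraries, against 0.133 CPM per kilobase in wild type.

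Meis2 had 353, 324 and 340.0 CPM in mutant-labelled libraries 1 to 3, while wild-type libraries 1 to 3 had 379, 368 and 373 CPM. Each mutant-labelled library lay below each wild-type library, with a log2 fold change of −0.14 (SE 0.05, n = 3 per group, edgeR adjusted p = 0.631, or 0.0848 with the block). Ppp1r1b also did not overlap, with 60.9, 58.5 and 59.7 CPM in mutant-labelled libraries, against 69.8, 63.7 and 61.7 CPM in wild type. Its log2 fold change was −0.12 (SE 0.06; adjusted p of 0.784 in edgeR). These were the 2 striatal markers without overlap, both lower in mutant-labelled libraries, where 6.09% of all genes tested had that order. Neither passed the test.

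Receptor genes of the indirect striatal pathway gave no common sign. Drd2, the D2 dopamine receptor gene, had 7.26, 6.46 and 5.44 CPM in mutant-labelled libraries, against 7.68, 6.91 and 6.42 CPM in wild type. Adora2a, the adenosine receptor gene of striatopallidal neurons, had 19.9, 16.3 and 17.6 CPM in mutant-labelled libraries, against 19.1, 16.8 and 14.0 CPM in wild type. Their log2 fold changes were −0.13 (SE 0.15) and 0.11 (SE 0.13), within the spread of the libraries, and the groups overlapped in both. The orphan receptor gene Gpr6, with 19 to 36 reads per library, had 1.43 ± 0.345 CPM in mutant-labelled libraries, against 1.14 ± 0.181 CPM in wild type, and Oprk1 had 1.43 ± 0.303 CPM and 1.21 ± 0.458 CPM in the same order (SD, n = 3 each).

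Most transcription factors of developing striatal neurons were highest in library 1 of both genotypes. Isl1, a LIM homeobox gene of striatonigral neurons, had 20.3, 12.7 and 13.4 CPM in mutant-labelled libraries 1 to 3, and wild-type libraries 1 to 3 had 22.8, 11.4 and 11.1 CPM. Library 1 was 1.59-fold above library 2 in the mutant-labelled group and 2.001-fold in wild type. Six3, a homeobox gene of striatopallidal neurons, had 13.1, 9.09 and 12.1 CPM in mutant-labelled libraries, against 16.0, 9.66 and 9.69 CPM in wild type. Zfp503, also known as Nolz1, had 10.1, 8.05 and 8.76 CPM in mutant-labelled libraries, against 15.9, 10.9 and 8.55 CPM in wild type. Its log2 fold change was −0.40 (SE 0.22, adjusted p of 0.810 in edgeR), or −0.37 with the block (SE 0.13, adjusted p of 0.137).

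Ikzf1, the zinc finger gene Ikaros, had 18.5, 13.7 and 10.8 CPM in mutant-labelled libraries, against 19.7, 17.5 and 10.9 CPM in wild type. Rarb, a retinoic acid receptor gene, had 25.1, 21.4 and 20.2 CPM in mutant-labelled libraries, against 28.5, 27.3 and 17.3 CPM in wild type. Both had library 1 highest and library 3 lowest in each genotype, as did the summed vessel markers. Which cells the RNA of Ikzf1 and Rarb came from was not tested. Ebf1, a helix-loop-helix factor gene of the striatal matrix that pericytes also transcribe, averaged 9.63 ± 0.995 CPM in mutant-labelled libraries, against 11.1 ± 1.36 CPM in wild type (SD, n = 3 each).

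A pair of striatal signalling genes had their lowest value in library 1 instead. Rgs9, a regulator of G-protein signalling downstream of dopamine receptors, had 25.03, 41.7 and 32.7 CPM in mutant-labelled libraries, against 29.6, 43.9 and 45.0 CPM in wild type. Library 1 was the lowest in both genotypes. Pde10a, the phosphodiesterase gene of medium spiny neurons, had 145, 178 and 149 CPM in mutant-labelled libraries, against 127, 173 and 133 CPM in wild type, with library 1 lowest and library 2 highest in each. With the block in edgeR, the log2 fold change was −0.25 for Rgs9 (SE 0.076) and 0.13 for Pde10a (SE 0.043). Their adjusted p in edgeR was 0.0882 and 0.128 with the block, and 0.899 and 0.931 without it. Library 1 was the highest in both genotypes for 9 of 14 striatal markers and the lowest for 2 of 14, where 19.6% and 17.5% of all genes tested had those orders.

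Of 14 striatal markers 0 passed in edgeR without or with the block, with a median log2 fold change of −0.13, against −0.01 over all genes tested. The median was −0.0023 without wild type 1. A second list held 13 further striatal genes. Of these, in edgeR, Penk and Syndig1l passed with the block only and the other 11 in neither fit. Over all genes tested, 3.46% passed with the block and 0.0752% without it. Syndig1l, also known as capucin and enriched in striatum, had 17.5, 16.1 and 19.8 CPM in mutant-labelled libraries 1 to 3, and wild-type libraries 1 to 3 had 25.8, 26.4 and 29.3 CPM. It was lower in each mutant-labelled library than in any wild-type library, an order that 6.09% of all genes tested had. With the block in edgeR it fell by 0.61 in log2 units (SE 0.08). Its adjusted p was 0.000555 with the block, 0.131 without it and 0.000917 in DESeq2.

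Penk, which encodes the enkephalin precursor of striatopallidal neurons, had 10.2, 9.63 and 14.0 CPM in mutant-labelled libraries, against 19.7, 12.4 and 17.6 CPM in wild type. The groups overlapped, and with the block it fell by 0.55 (SE 0.12, adjusted p = 0.0277; 0.633 without it). Drd1a, the D1 receptor gene that marks the direct pathway, had 12.7, 12.1 and 12.6 CPM in mutant-labelled libraries, against 11.7, 16.3 and 12.1 CPM in wild type, and passed in neither fit. Which cells the RNA of Penk and Syndig1l came from was not tested.

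Hippocampal markers differed in which library was highest. Of the 9, 2 or 22.2% were highest in library 1 of both genotypes, near the 19.6% of all genes tested with that order. Lmx1a, a LIM homeobox gene of the roof plate and cortical hem that choroid plexus also uses, had 1.23, 0.584 and 0.453 CPM in mutant-labelled libraries 1 to 3, and wild-type libraries 1 to 3 had 2.09, 0.483 and 0.599 CPM. It came from 9 to 44 reads per library. Lef1, the nuclear effector of Wnt signalling required for dentate granule cells and also active in brain vessels, had 8.34, 5.13 and 4.13 CPM in mutant-labelled libraries, against 8.34, 5.60 and 4.63 CPM in wild type. These were the 2 of 9 hippocampal markers with library 1 highest in both genotypes.

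Prox1, the homeobox gene of dentate granule cells and some cortical interneurons, instead peaked in library 2 of each genotype. It had 4.81, 8.55 and 4.13 CPM in mutant-labelled libraries, against 6.35, 8.69 and 5.66 CPM in wild type. Calb1, which encodes the calcium buffer calbindin, had 23.1, 18.7 and 26.5 CPM in mutant-labelled libraries, against 29.5, 19.1 and 30.6 CPM in wild type, lowest in library 2 of each. Spock3, a secreted proteoglycan gene, had the same order as Calb1, with 13.8, 10.8 and 15.7 CPM in mutant-labelled libraries, against 16.8, 11.01 and 18.02 CPM in wild type.

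Receptor genes gave the 2 hippocampal markers without overlap between the groups, both higher in mutant-labelled libraries, where 7.42% of all genes tested had that order. Nr3c2, the mineralocorticoid receptor gene, had 8.48, 9.17 and 7.66 CPM in mutant-labelled libraries, against 6.69, 7.49 and 5.99 CPM in wild type. Its log2 fold change was 0.33 (SE 0.14, n = 3 per group, edgeR adjusted p = 0.697, or 0.151 with the block). Fzd9, a Wnt receptor gene of the frizzled family, had 10.5, 10.6 and 12.1 CPM in mutant-labelled libraries, against 10.1, 10.2 and 10.3 CPM in wild type. Its log2 fold change was 0.12 (SE 0.11; adjusted p of 0.901 in edgeR). Neither passed.

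Zbtb20, a zinc finger gene that specifies hippocampal pyramidal neurons, had 1.93, 1.58 and 1.06 CPM in mutant-labelled libraries, against 1.37, 4.15 and 2.07 CPM in wild type, from 21 to 86 reads. Its exon annotation spans 30730 bases in GENCODE, so that its level was only 0.0496 CPM per kilobase in mutant-labelled libraries, against 0.0824 CPM per kilobase in wild type. The sources used here do not name the annotation behind the counts, and how much of this gene it covered is unknown. Dsp, the desmoplakin gene of dentate granule cells and epithelia, averaged 3.21 ± 0.916 CPM in mutant-labelled libraries, against 2.75 ± 0.190 CPM in wild type (SD, n = 3 each).

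The 9 hippocampal markers had a median log2 fold change of −0.19, with 3 above 0 and 6 below, and 0 passed in edgeR without or with the block. The median was 0.10 without wild type 1. Of 8 further hippocampal genes, among them Wnt8b of the cortical hem, 7 could be tested and 0 passed in either fit. Wnt8b itself had 1.84, 0.625 and 0.0504 CPM in mutant-labelled libraries 1 to 3, and wild-type libraries 1 to 3 had 1.42, 0.290 and 0.163 CPM. It was thus highest in library 1 of each genotype, the 1 of these 8 genes with that order.

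Gbx2 had few reads, and 0 of 8 thalamic markers had library 1 highest in both genotypes, where 19.6% of all genes tested had that order. Gbx2, the homeobox gene of thalamic relay neurons, had 5, 8 and 10 reads in mutant-labelled libraries 1 to 3, and wild-type libraries 1 to 3 had 11, 2 and 15 reads. Tcf7l2, a Wnt effector that marks thalamic neurons, had 5.99, 4.46 and 5.24 CPM in mutant-labelled libraries, against 4.98, 4.98 and 5.55 CPM in wild type. Lhx9, a LIM homeobox gene of thalamus and habenula, had 4.67, 2.71 and 5.84 CPM in mutant-labelled libraries, against 4.41, 2.90 and 4.301 CPM in wild type, lowest in library 2 of each. The transmembrane gene Slitrk6 had 16 to 25 reads per library.

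The remaining thalamic markers had more reads. Prkcd, which encodes protein kinase C delta, had 54.8, 53.5 and 54.9 CPM in mutant-labelled libraries, against 51.2, 46.7 and 53.4 CPM in wild type. It was the 1 of 8 thalamic markers without overlap, higher in mutant-labelled libraries, where 7.42% of all genes tested had that order. Its log2 fold change was 0.11 (SE 0.07; adjusted p of 0.813 in edgeR). Ntng1, the netrin G1 gene of thalamocortical axons, had 14.2, 13.6 and 16.2 CPM in mutant-labelled libraries, against 13.8, 13.0 and 13.3 CPM in wild type. The exchange factor genes Plekhg1 and Vav3 averaged 13.4 ± 2.19 and 14.4 ± 0.440 CPM in mutant-labelled libraries, against 13.9 ± 3.88 and 15.3 ± 0.929 CPM in wild type (SD, n = 3 each).

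The 8 thalamic markers had a median log2 fold change of 0.06, with 5 above 0 and 3 below, and 0 passed in edgeR without or with the block. Without both libraries numbered 1 the median was −0.09. Of 8 further thalamic genes 5 could be tested and 0 passed in either fit. Olig3, Pou4f1 and Rora, defining genes of thalamic progenitors, habenula and relay neurons, had at most 4, 12 and 6 reads in any library, though how much of Rora the annotation behind the counts covered is unknown, as for Zbtb20. The other 5 genes of that list, which other brain cells also transcribe, were higher. Slc17a6, a vesicular glutamate transporter gene, averaged 45.2 ± 4.98 CPM in mutant-labelled libraries, against 44.1 ± 6.05 CPM in wild type. Calb2, the calretinin gene, averaged 16.1 ± 2.98 CPM in mutant-labelled libraries, against 15.7 ± 3.56 CPM in wild type, and Zic4 averaged 9.50 ± 7.56 CPM in mutant-labelled libraries, against 9.54 ± 3.04 CPM in wild type (SD, n = 3 each). Synpo2 and the serotonin transporter gene Slc6a4 lay between 2.28 and 3.28 CPM in every library. In sum, 6 hypothalamic markers reached 1.37, 1.29 and 1.86 CPM in mutant-labelled libraries, against 0.901, 1.45 and 1.85 CPM in wild type.

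**Figure D5:**
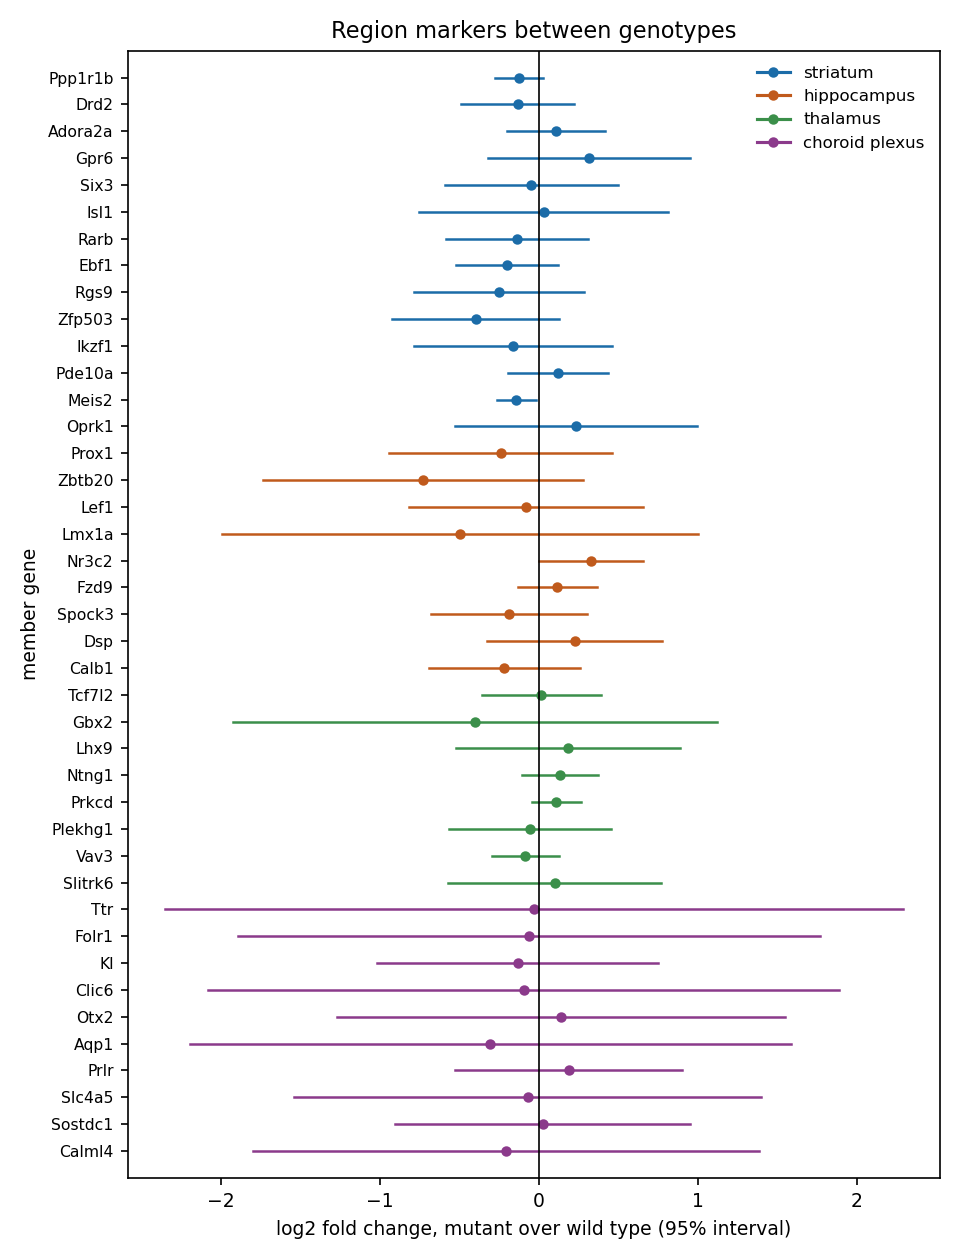
Log2 fold change of each marker, mutant-labelled over wild type, with its 95% interval from edgeR's quasi-likelihood fit without the block and colours by region. Choroid plexus intervals are the widest as a list, that of Ttr running from −2.35 to 2.29, and only those of Meis2 and Nr3c2 lie to 1 side of 0, with adjusted p of 0.631 and 0.697.

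Across the 4 regions, 16 of 41 log2 fold changes lay above 0 and 25 below, and the median was −0.07. The groups did not overlap for 3 markers that were higher and 2 that were lower in mutant-labelled libraries, where 13.5% of all genes tested had no overlap in either direction. The same library number held the highest value in both genotypes for 31 of 41 markers, or 75.6%, against 54.8% of all genes tested. By region this was 9 of 10 for choroid plexus, 11 of 14 for striatum, 7 of 9 for hippocampus and 4 of 8 for thalamus.

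On GRCm38, the 5 markers without overlap lie as follows, each interval being the whole annotated gene with exons and introns. Meis2 lies on chromosome 2 from 115863064 to 116065839 on the minus strand, and Ppp1r1b on chromosome 11 from 98348404 to 98357796 on the plus strand. Nr3c2 lies on chromosome 8 from 76899442 to 77245012 on the plus strand. Fzd9 lies on chromosome 5 from 135248938 to 135251230, and Prkcd on chromosome 14 from 30595354 to 30626210, both on the minus strand. Exons of Ppp1r1b and Nr3c2 overlap those of a gene on the opposite strand in GENCODE, and the sources used here do not say whether counting used strand, so their counts are uncertain to that extent.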

How the data were processed

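RNA was measured in 6 pooled neocortex libraries. Per the labels' protocols, the TruSeq kit was a stranded one. The authors deposited raw read counts per gene symbol. Per the submitters' processing notes, tools were HTSeq 0.5.3p9, Bowtie2 2.1.0, TopHat2 2.0.9 and CASAVA 1.8.2, with build mm10. Settings, annotation and strand use were not given in the sources used here. Of all columns of sample values, 0 were left unused. No library was a copy of another (chi-square per degree of freedom 7.13 to 23.1 within genotypes, over genes with at least 20 counts).

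The main test was that of edgeR 4.0.16 under R 4.3.3 (robust quasi-likelihood, TMM, default filter, two-sided, Benjamini-Hochberg over 14618 genes, threshold 0.05). DESeq2 1.42.0 was an alternative. The edgeR fits, without and with the block, were run on simulated counts in which same-numbered libraries did not deviate together. How they behave on libraries that do was not tested. Log2 CPM used a prior count of 2. Pooled embryos came from several litters, so p-values measure the spread between pools. Same-numbered libraries deviated together (correlations 0.614, 0.514 and 0.467; other combinations −0.483 to −0.0684), and since each exceeded 0.1 equal numbers were treated as pairs, from the data and not the labels. A fit with the number as a block was therefore run. Exon lengths and overlaps came from GENCODE M21 (GRCm38): exons of 3 markers overlap another gene on the same strand and of 10 on the opposite strand. The markers and further lists were chosen with earlier results of these data known. All 41 markers are named, plus genes of the further lists past the threshold in either edgeR fit, of which 1 is not reported here; Wnt8b, Drd1a, Kcne2, Cldn2, Col1a1, Col1a2, Olig3, Pou4f1, Rora, Mfrp, Zic1, Zic4, Slc17a6, Calb2, Synpo2, Slc6a4, En1 and En2 were named after their values were seen.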

Additional observations from a re-analysis of the deposited data

How the results depend on the processing

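Without the block, 7 genes over the whole table passed as higher and 4 as lower in mutant-labelled libraries. With the replicate block they were 288 and 218, with no filter on low counts 11 and 9, and in DESeq2 59 and 43. Leaving out libraries or pairs gave 1 to 1119 higher and 1 to 755 lower. Markers called numbered 0 under every alternative on all 6 libraries and 0 to 4 when libraries or pairs were left out. The calls came with the block, on 1 residual degree of freedom: Rgs9 (−0.36), Zfp503 (−0.36), Pde10a (0.18) and Calb1 (−0.28) without pair 2, and Zbtb20 (−1.22) without pair 1. Leaving out both libraries numbered 1 without a block was chosen after seeing the data. Leaving out single libraries, the index difference ran from −0.54 (without mutant 1) to 0.38 (without wild type 1) for choroid plexus, −0.12 to 0.033 for striatum, −0.22 to −0.013 for hippocampus and −0.066 to 0.098 for thalamus, so that its sign turned in 3 of the 4 regions.

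Over fits that left out libraries or pairs, the median log2 fold change ran from −0.16 to −0.0023 for striatum, −0.21 to 0.10 for hippocampus, −0.094 to 0.14 for thalamus and −0.89 to 0.58 for choroid plexus. The choroid plexus extremes came from leaving out mutant 1 alone or wild type 1 alone. Without whole pairs 1, 2 and 3, with the block, that median was −0.10, −0.12 and 0.025. Ttr was then 0.020, −0.31 and 0.31. Of 41 markers, 20 kept their sign in all 14 alternatives and 21 did not. Among choroid plexus markers the ranges were −1.22 to 1.148 for Ttr, −0.94 to 0.86 for Folr1, −0.46 to 0.23 for Kl, −0.94 to 0.88 for Clic6, −0.71 to 0.60 for Otx2, −1.29 to 0.55 for Aqp1, −0.15 to 0.46 for Prlr, −0.93 to 0.56 for Slc4a5, −0.47 to 0.30 for Sostdc1 and −0.86 to 0.74 for Calml4. Elsewhere they were −0.19 to 0.24 for Six3, −0.21 to 0.46 for Isl1, −0.39 to 0.0084 for Ikzf1, −0.0085 to 0.53 for Oprk1, −0.42 to 0.19 for Lef1, −1.02 to 0.48 for Lmx1a, −0.12 to 0.12 for Tcf7l2, −0.89 to 0.19 for Gbx2, −0.068 to 0.44 for Lhx9, −0.24 to 0.16 for Plekhg1 and −0.12 to 0.26 for Slitrk6. With the block on all libraries, Ttr was 0.0046 and Sostdc1 −0.0044, opposite in sign to the values without it. The cause was not tested. Depth limits Gbx2, Slitrk6, Prlr, Kl, Gpr6 and Oprk1, which had 36 reads or fewer in any library.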

Other observations

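Wild type 1 held transcripts of posterior patterning genes that the other libraries lacked or nearly lacked. Hoxa5, a Hox gene of hindbrain and spinal cord that is silent in forebrain, had 0 reads in each mutant-labelled library and 43, 0 and 0 reads in wild-type libraries 1, 2 and 3. Hoxb5 had 0, 1 and 0 reads in mutant-labelled libraries and 13, 0 and 0 in wild type. Pax2, a gene of the midbrain and hindbrain boundary and of spinal interneurons, had 3, 0 and 2 reads in mutant-labelled libraries and 25, 6 and 2 in wild type. En1 and En2, which mark midbrain and cerebellum, had at most 2 and 4 reads in any library. These genes were picked out after their values were seen, and a count of 0 allows up to 3 reads in that library.

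Zic genes, known from septum, meninges and choroid plexus stroma, were high in libraries numbered 1. Zic1 had 38.1, 19.4 and 19.9 CPM in mutant-labelled libraries 1 to 3, and wild-type libraries 1 to 3 had 34.6, 22.8 and 19.5 CPM. Zic4 had 18.2, 4.46 and 5.84 CPM in mutant-labelled libraries and 12.9, 8.598 and 7.08 CPM in wild type. With the block in edgeR, the projection neuron genes Fezf2 and Bcl11b were higher in mutant-labelled libraries, with log2 fold changes of 0.40 and 0.15 and adjusted p of 0.000158 and 0.0478. In edgeR without the block neither passed (adjusted p of 0.101 and 0.549), while in DESeq2, also without it, Fezf2 passed and Bcl11b did not (adjusted p of 0.000196 and 0.436).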
